A study of Mus musculus with 16 samples.

Results

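The genes described here are the protein-coding neighbours of Myd88 on mouse chromosome 9. They were chosen by position and gene class, with some genes of the window left out by name. A gene was taken when it was annotated as protein-coding in GENCODE M21 and its start lay no more than 5 Mb before or after the Myd88 gene (chromosome 9, 119335934 to 119341411, GRCm38), that is between 114335934 and 124341411. Of the 55536 genes counted, 22028 were protein-coding and 93 of these were members. Another 13 protein-coding genes of the window (Myd88 itself, Stt3b, Acvr2b, Abhd5 and chemokine receptor genes whose symbols begin with Ccr or Cxcr) were not taken. Of the members, 30 start before Myd88, 62 after it, and Acaa1a starts within it.

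The samples were RNA of the red gastrocnemius, the oxidative portion of a hindlimb muscle, and of visceral fat, taken from 8 female mice. The knockout mice (KO, 4 animals) were labelled as lacking MyD88 in muscle, and the controls (4 animals) as Cre-control. Wheel running for 5 weeks and then 8 days of restricted movement in a small cage preceded sampling in both genotypes, so no group without this treatment was compared. The sources used here do not give the promoter driving Cre, the deleted part of Myd88, whether controls carry the targeted allele, the strain or the age. By the numbers in the subject labels each mouse gave both tissues, which makes 16 libraries in 4 groups of 4.

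MyD88 links Toll-like and interleukin-1 family receptors, once they bind their ligands, to the kinases that activate NF-kB. In a conditional knockout, Cre recombinase removes a marked part of a gene in the cells that make Cre. Genes next to such an allele are inherited with it in breeding, so mice chosen by genotype at one locus also tend to share the alleles of linked genes. The window around Myd88 holds genes of unrelated function, among them a pair of peroxisomal thiolases, ribosomal proteins, beta-catenin and several muscle proteins.

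Libraries held 15203806 to 21747345 counts in muscle and 13242243 to 19114782 in fat. A level is in CPM, the count of a gene relative to the TMM-scaled size of its library. Myd88 was at 2.13, 2.02, 1.66 and 1.93 CPM in muscle of KO mice 139, 958, 960 and 29, against 2.17, 2.11, 3.43 and 2.95 CPM in controls 131, 137, 138 and 11 (exact permutation p = 0.0571, two-sided). This and later lists of 4 values keep the same order of mice. The counts cover the whole gene, so reads outside the deleted part and from cells without Cre are in them. One fat library, that of control mouse 138, was unlike the others. Its adipocyte markers (6 genes) summed to 4900 CPM, against 18800 to 20100 CPM in KO fat and 18400 to 22500 CPM in the other control fat. Its smooth muscle markers (6 genes) summed to 21900 CPM, against 447 to 1050 CPM in KO fat and 405 to 639 CPM in the other controls. Its urothelium markers (5 genes) summed to 1990 CPM, against 10.9 to 31.8 CPM in KO fat and 13.1 to 19.8 CPM in the other controls. Counts and medians over members in fat are therefore given with and without this mouse. For single members the value without it is given in part, and values in fat are over 8 libraries unless stated. In bulk tissue, fewer cells of a type and less RNA per cell cannot be told apart.

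The gene closest to Myd88 is Acaa1a, coding for a peroxisomal 3-ketoacyl-CoA thiolase of fatty acid beta-oxidation. It lies head to head with Myd88 on the opposite strand (chromosome 9, 119339676 to 119350299), and exons of both overlap. In muscle Acaa1a was at 18.3, 17.2, 16.4 and 16.5 CPM in KO mice and at 16.4, 15.2, 17.6 and 18 CPM in controls. In fat it was at 66.7, 62, 77.1 and 71.6 CPM in KO mice and at 73.3, 77.5, 51.5 and 66.7 CPM in controls. The genotypes overlapped in both tissues, and the log2 fold changes, KO over control, were 0.03 (SE 0.09) in muscle and 0.04 (SE 0.14) in fat. Without mouse 138 the log2 fold change of Acaa1a in fat was -0.07 (SE 0.09). The sources used here do not say whether counting used strand, and 16.8% of the 51-base stretches of Acaa1a also occur in other genes (12.3% in Acaa1b), so reads at the overlap and in these stretches are uncertain.

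Promoters are shown for Acaa1a, because it shares its start region with Myd88, and for Azi2 and Cmc1, the neighbouring pair of which one had the smallest p in muscle and the other separated the genotypes in fat. Each runs from 250 bases before the RefSeq start to 50 after it, 5′ to 3′ on the strand of the gene (RefSeq, GRCm38.p6). They are chr9:119341044-119341343 (plus strand) for Acaa1a, chr9:118040272-118040571 (plus strand) for Azi2 and chr9:118150147-118150446 (minus strand) for Cmc1. Capitals mark, on either strand, the GC box letters GGGCGG, the letters CCAAT of the box of that name, and the TATAAA letters of the TATA box.
Acaa1a: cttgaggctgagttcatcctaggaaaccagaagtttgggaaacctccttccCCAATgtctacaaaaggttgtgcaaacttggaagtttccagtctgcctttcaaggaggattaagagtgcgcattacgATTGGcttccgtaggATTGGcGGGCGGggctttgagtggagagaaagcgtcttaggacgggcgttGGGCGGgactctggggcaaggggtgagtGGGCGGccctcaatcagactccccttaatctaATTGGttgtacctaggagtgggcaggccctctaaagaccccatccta
Azi2: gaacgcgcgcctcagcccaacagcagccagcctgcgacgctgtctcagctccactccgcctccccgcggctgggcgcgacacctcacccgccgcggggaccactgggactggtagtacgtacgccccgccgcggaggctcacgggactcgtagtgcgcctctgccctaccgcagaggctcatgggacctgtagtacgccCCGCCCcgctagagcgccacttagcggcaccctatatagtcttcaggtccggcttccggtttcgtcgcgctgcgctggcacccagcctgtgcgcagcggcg
Cmc1: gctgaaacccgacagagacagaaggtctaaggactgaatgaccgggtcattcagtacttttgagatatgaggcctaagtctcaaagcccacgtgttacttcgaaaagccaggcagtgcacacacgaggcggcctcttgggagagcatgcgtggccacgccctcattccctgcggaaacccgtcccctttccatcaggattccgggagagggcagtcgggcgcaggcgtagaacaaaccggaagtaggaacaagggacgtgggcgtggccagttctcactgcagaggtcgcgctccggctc
The Acaa1a promoter holds 3 matches to GGGCGG and 4 to CCAAT, that of Azi2 1 match to GGGCGG on the reverse strand, and that of Cmc1 none of the motifs searched. GGGCGG occurs in 44 of the 80 members with a promoter in the table (55%), against 35.9% of all 27025 promoters of the same length. CCAAT occurs in 36.2% of the members' promoters and 37.9% of all, and TATAAA in 7.5% and 14.2%. These are matches of letters only, and the set of all promoters was not limited to protein-coding genes, as the members are.

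Further along on either side, the nearest members did not pass the adjusted threshold in either tissue. Oxsr1, a kinase of the WNK pathway that regulates ion cotransporters, was at 104, 100, 100 and 103 CPM in KO muscle and at 105, 98.6, 110 and 103 CPM in control muscle (log2 fold change -0.03, SE 0.07). Exog, a mitochondrial nuclease, was at 1.42, 1.38, 1.46 and 1.39 CPM in KO muscle, against 0.631, 1.08, 1.32 and 1.35 CPM in control muscle. Its genotypes were apart in muscle by a gap far smaller than the spread of the controls, and its log2 fold change was 0.34 (SE 0.24). In fat, Oxsr1 and Exog both had a log2 fold change of -0.13 (SE 0.08 and 0.15). Acaa1b, the second thiolase, was at 41.7, 38, 48 and 37.3 CPM in KO fat, against 54.9, 62.5, 65.8 and 39.8 CPM in control fat. Its KO values lay low but overlapped those of control mouse 11 (log2 fold change -0.43, SE 0.16, edgeR unadjusted p = 0.0281, adjusted p = 0.614), and 30.1% of its stretches also occur in Acaa1a. It was at or below 0.27 CPM in every muscle library. The organic anion transporter genes Slc22a13 and Slc22a14, the xylulose kinase gene Xylb, the gene Dlec1 and the sensory neuron channel genes Scn10a and Scn11a were too low to test in muscle. In fat Slc22a14, Xylb and Dlec1 could be tested, with log2 fold changes of 0.13 (SE 0.46), -0.14 (SE 0.26) and 0.42 (SE 0.27). Without mouse 138 they were -0.18, -0.09 and 0.36, so the sign of Slc22a14 changed. Plcd1, a phospholipase C, was at 25.4, 22.2, 25.3 and 21.6 CPM in KO fat, against 24.2, 29.7, 42.2 and 26.4 CPM in control fat. Its genotypes overlapped, with a log2 fold change of -0.37 (SE 0.17, edgeR unadjusted p = 0.0635) over 8 libraries, -0.18 without mouse 138 and -0.02 (SE 0.10) in muscle.

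**Figure D1:**
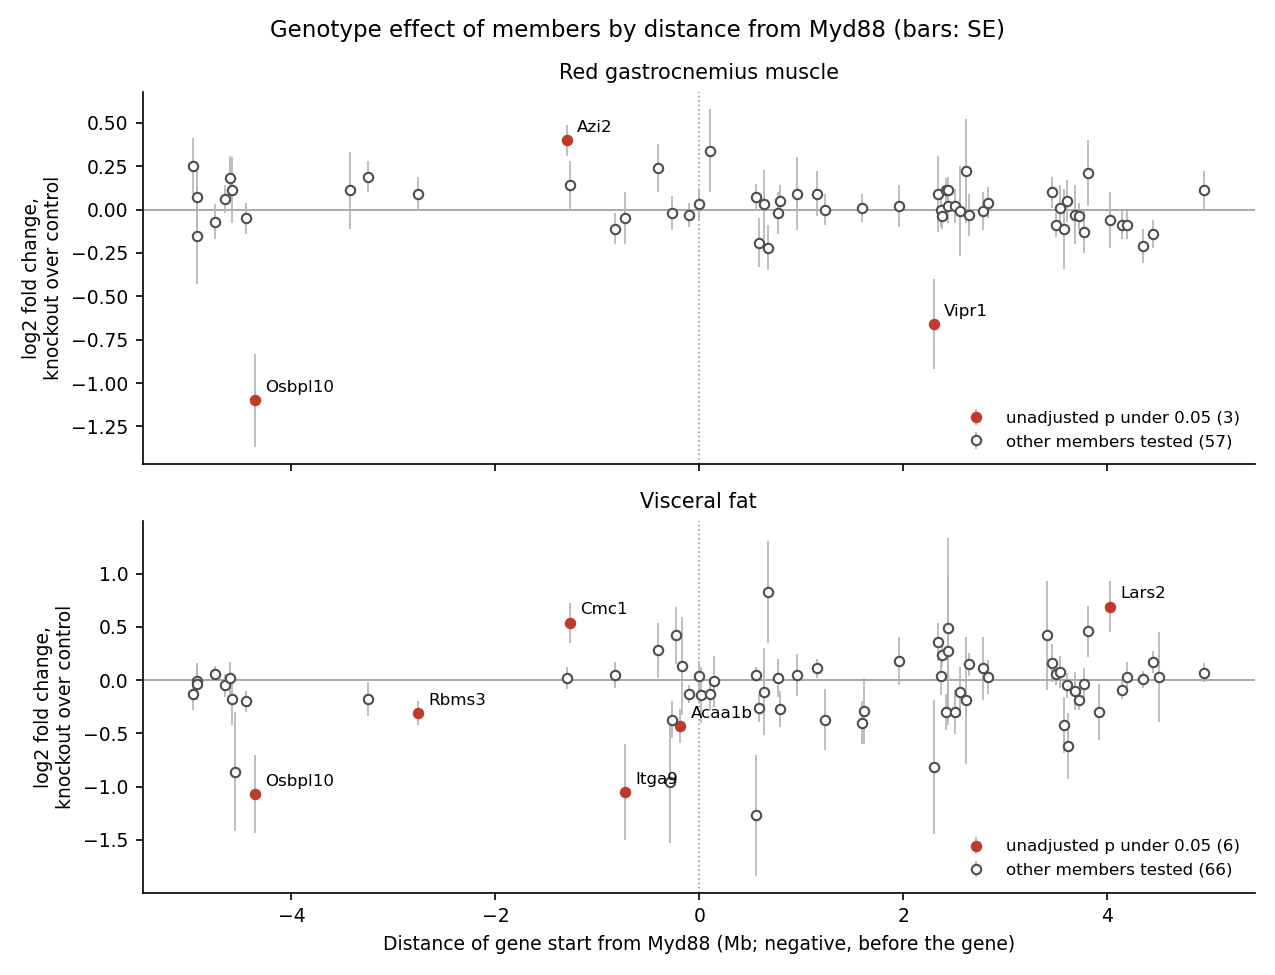
Log2 fold change, KO over control, of each member tested (vertical axis, with its SE as a bar) against the distance of its start from Myd88 in Mb (horizontal axis), in muscle (top, 60 members) and fat (bottom, 72 members); filled points have an unadjusted edgeR p under 0.05. Most points lie near 0 on both sides of Myd88, and Osbpl10 lies near -1 in both tissues.

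In muscle, the tissue in which Myd88 was targeted, no member passed the test. Of the 93 members, 60 were expressed enough to be tested in muscle, and 0 of them had an edgeR adjusted p under 0.05, where 2 of all 14183 genes tested did (0.0141%). DESeq2 and limma voom called 0 members too. At an unadjusted p under 0.05 there were 3 members (5%), against 5.04% of all genes. These were Azi2, higher in KO muscle (1.67%, against 3.17% of all genes), and Osbpl10 and Vipr1, lower (3.33%, against 1.87%). For 5 members (8.33%) all KO mice lay beyond all controls, against 3.38% of all genes: Azi2, Tgfbr2, Zfp651 and Exog higher (6.67%, against 1.78%) and Osbpl10 lower in KO muscle (1.67%, against 1.59%). Members were higher in KO muscle in 34 cases and lower in 26. Their median log2 fold change was 0.014, against 0.003 over all genes, and their median absolute log2 fold change 0.086, against 0.098. The median SE of a member was 0.12.

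Osbpl10 codes for an oxysterol-binding-protein-related protein that binds lipids, and starts 4.36 Mb before Myd88 (114978569 to 115232225). In muscle it was at 0.71, 0.596, 0.605 and 0.944 CPM in KO mice, against 2.03, 1.31, 1.11 and 1.78 CPM in controls. In fat it was at 0.567, 1.17, 0.825 and 1.3 CPM in KO mice, against 1.47, 2.65, 2.81 and 1.21 CPM in controls. All KO mice were below all controls in muscle, while in fat KO mouse 29 was above control mouse 11. The log2 fold change was -1.10 in muscle (SE 0.27, edgeR unadjusted p = 0.00119, adjusted p = 0.648, exact permutation p = 0.0286, the smallest that 4 against 4 can give). It was -1.07 in fat (SE 0.37, edgeR unadjusted p = 0.0206, adjusted p = 0.592, exact permutation p = 0.0571). Leaving out each mouse in turn kept it between -1.27 and -0.95 in muscle and between -1.26 and -0.87 in fat. It was the member with the lowest log2 fold change in muscle and did not pass the adjusted threshold in either tissue.

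Azi2 codes for an adaptor of the kinase TBK1, which acts in the induction of type I interferon, and starts 1.3 Mb before Myd88 (118040499 to 118069794). In muscle it was at 56.5, 49.3, 45.3 and 44.4 CPM in KO mice, against 39, 39.4, 35.5 and 34.1 CPM in controls. Every KO mouse was above every control. The log2 fold change was 0.40 (SE 0.09, edgeR unadjusted p = 0.000529, adjusted p = 0.512, exact permutation p = 0.0286). With no filter on low counts the edgeR adjusted p was 0.00647, and Azi2 was the member called, 1 of 91. Under that setting 80 of all 28344 genes were called, against 2 of 14183 with the filter. In fat Azi2 was at 63.7, 69.8, 74.9 and 71.4 CPM in KO mice and at 63.7, 68.5, 79.9 and 64.6 CPM in controls, with full overlap (log2 fold change 0.02, SE 0.10).

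The other members that stood out in muscle had smaller or less even differences. The transforming growth factor beta receptor gene Tgfbr2 was at 38.4, 36.1, 37.4 and 38 CPM in KO muscle, against 36, 34.7, 33.7 and 27.1 CPM in control muscle. The genotypes were apart by a narrow gap, with control mouse 11 well below the rest, and the log2 fold change was 0.19 (SE 0.09, edgeR adjusted p = 0.949). The zinc finger gene Zfp651 was at 82.7, 83.1, 84.6 and 83.6 CPM in KO muscle, against 72.4, 74.2, 81.9 and 80.2 CPM in control muscle (log2 fold change 0.11, SE 0.07). Vipr1, the receptor of vasoactive intestinal peptide, was at 1.18, 0.917, 2.02 and 2.25 CPM in KO muscle, against 2.17, 2.22, 2.8 and 2.89 CPM in control muscle. KO mouse 29 lay above the 2 lowest controls, and the log2 fold change was -0.66 (SE 0.26, edgeR unadjusted p = 0.0235, adjusted p = 0.949). The summed level of macrophage markers (6 genes) was 52.9 to 75.3 CPM in KO muscle and 33.7 to 50.4 CPM in control muscle; its part in these differences was not tested.

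**Figure D2:**
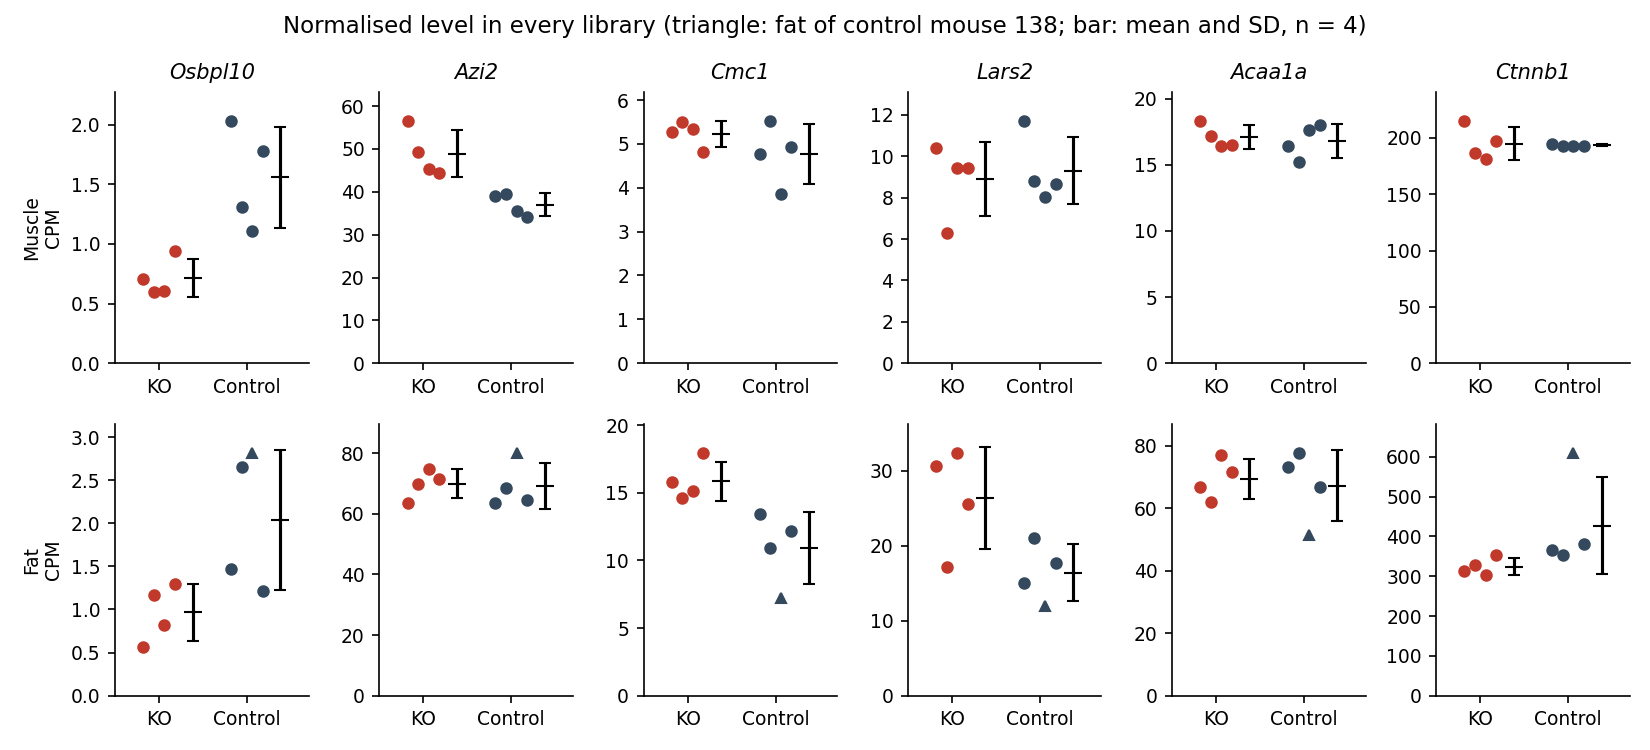
Level in CPM (vertical axis, from 0) of 6 members in every library of muscle (top) and fat (bottom), with KO mice left of controls; the bar beside each group is the mean and SD of 4 mice, and the triangle is the fat library of control mouse 138. Osbpl10 was lower in all KO muscles than in all controls, Azi2 was higher in all KO muscles than in all controls and overlapped in fat, and Acaa1a overlapped in both tissues.

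In fat, outside the targeted tissue, no member passed the test either. Of 72 members tested, 0 had an edgeR adjusted p under 0.05, where 1 of all 16323 genes did (0.00613%). DESeq2 and limma voom called 0 members over the 8 libraries. At an unadjusted p under 0.05 there were 6 members (8.33%), against 7.99% of all genes. Lars2 and Cmc1 were higher in KO fat (2.78%, against 3.9% of all genes), and Osbpl10, Rbms3, Acaa1b and Itga9 lower (5.56%, against 4.1%). Cmc1 was the member that separated the genotypes, 1 of 72 (1.39%), against 6.36% of all genes in either direction and 3.36% toward higher levels in KO fat. Members were higher in KO fat in 34 cases and lower in 38, with a median log2 fold change of -0.024, against -0.011 over all genes. The median absolute log2 fold change was 0.174, against 0.167, and the median SE of a member 0.18.

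The members higher in KO fat at an unadjusted p under 0.05 were Cmc1 and Lars2, both of them mitochondrial proteins. Cmc1, which takes part in the assembly of respiratory complex IV, was at 15.8, 14.6, 15.1 and 17.9 CPM in KO fat, against 13.4, 10.9, 7.24 and 12.2 CPM in control fat. Every KO mouse was above every control, and control mouse 138 was the lowest. The log2 fold change was 0.54 (SE 0.19, edgeR unadjusted p = 0.0204, adjusted p = 0.591, exact permutation p = 0.0286), and without mouse 138 it was 0.38 (edgeR unadjusted p = 0.00839, adjusted p = 0.195). In muscle Cmc1 had a log2 fold change of 0.14 (SE 0.14). Lars2, the mitochondrial leucyl-tRNA synthetase, was at 30.6, 17.1, 32.3 and 25.6 CPM in KO fat, against 15, 21, 12 and 17.7 CPM in control fat. KO mouse 958 lay below control mice 137 and 11 (log2 fold change 0.69, SE 0.24, edgeR unadjusted p = 0.0189, adjusted p = 0.591). In muscle Lars2 was at 10.4, 6.28, 9.42 and 9.44 CPM in KO mice and at 11.7, 8.82, 8.02 and 8.68 CPM in controls, which overlapped.

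Among the members that lay lower in KO fat, Rbms3 did so by a small amount and Itga9 through 1 control. Rbms3, an RNA-binding protein, was at 104, 113, 89.7 and 86.9 CPM in KO fat, against 113, 117, 135 and 121 CPM in control fat. The ranges met at 113 CPM, and the log2 fold change was -0.31 (SE 0.11, edgeR unadjusted p = 0.0236, adjusted p = 0.6). Itga9, the integrin alpha 9 subunit, was at 21.3, 21.1, 17.4 and 27.8 CPM in KO fat, against 27.4, 22.7, 97.1 and 34.5 CPM in control fat. The high value is mouse 138: the log2 fold change was -1.05 (SE 0.45) with it and -0.37 (edgeR unadjusted p = 0.0737) without it. Cx3cr1, the fractalkine receptor of monocytes and macrophages, had the lowest log2 fold change of the members in fat, -1.27 (SE 0.57, edgeR adjusted p = 0.627). It was at 1.13, 1.32, 0.766 and 1.24 CPM in KO fat, against 1.83, 0.627, 5.5 and 2.74 CPM in control fat, and its log2 fold change was -0.65 without mouse 138. The macrophage markers overlapped in fat, at 326 to 652 CPM in KO mice and 445 to 670 CPM in controls.

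Without mouse 138, the share of members past an unadjusted p of 0.05 was larger, and so was that of all genes. There were 11 such members of 72 (15.3%), against 16.6% of all 16579 genes tested. No member passed the adjusted threshold in edgeR, where 6 genes did (0.0362%). The groups did not overlap for 13 members (18.1%), against 15.9% of all genes. The smallest adjusted p of a member was that of Higd1a, a mitochondrial protein induced by low oxygen, which is named after its values were seen. It was at 25.1, 21.7, 22.7 and 26.2 CPM in KO fat, against 38.6, 31.4, 18.1 and 29.5 CPM in control fat, where 18.1 CPM is mouse 138. The log2 fold change was -0.30 (SE 0.21, edgeR adjusted p = 0.688) over 8 libraries and -0.47 (edgeR adjusted p = 0.15) without mouse 138. DESeq2 without mouse 138 called it as 1 of 72 members (1.39%; log2 fold change -0.48, adjusted p = 0.0307), where it called 2.04% of all genes. Other genes share 24.27% of the 51-base stretches of Higd1a (19.35% in Gm47112, whose exons overlap it on the other strand), so its level is uncertain. For Vipr1 the log2 fold change was -0.82 over 8 libraries and 0.24 without mouse 138, whose 5.25 CPM compares with at most 1.25 CPM in the other controls.

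**Figure D3:**
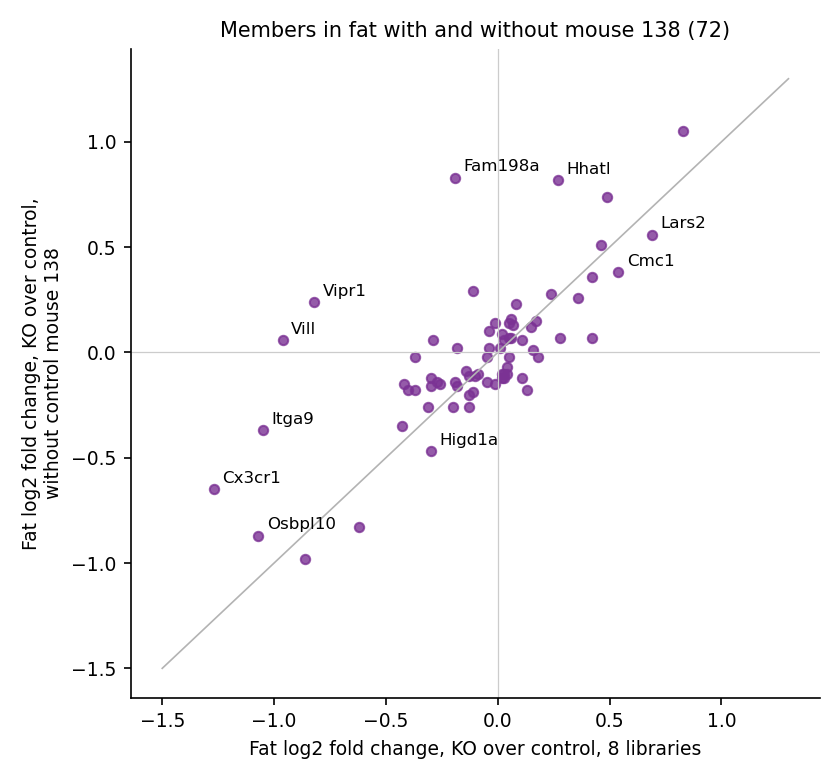
Log2 fold change of 72 members in fat, KO over control, over all 8 libraries (horizontal axis) and without control mouse 138 (vertical axis); the grey line marks equal values. Cmc1, Lars2 and Osbpl10 lie near the line, while Vipr1, Itga9 and Cx3cr1 lie above it.

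The question put to both tissues together is whether members moved in the same direction. Of 59 members tested in both, 32 had log2 fold changes of the same sign (54.2%), against 49% of the 13629 genes tested in both tissues and 47.9% of 607 protein-coding genes elsewhere on chromosome 9. Both tissues come from the same mice, so the comparisons are not independent. Of the members, 18 were higher in both, 14 lower in both, 15 higher in KO muscle and lower in KO fat, and 12 the other way. Without mouse 138 the same sign was found for 26 of 59 (44.1%), against 47.6% of all genes. Across members, Pearson's r was 0.42 and Spearman's rho 0.14, against 0.02 and -0.04 across all genes. Without mouse 138 they were 0.18 and -0.07, against 0.06 and -0.05. Osbpl10 was the member with an unadjusted p under 0.05 and the same sign in both tissues, 1 of 59 (1.69%), against 37 of all genes (0.271%). It stayed so without mouse 138 (1.69%, against 0.467%). No member separated the genotypes in both tissues, as did 0.198% of all genes, and without mouse 138 again none did, against 1.06%.

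**Figure D4:**
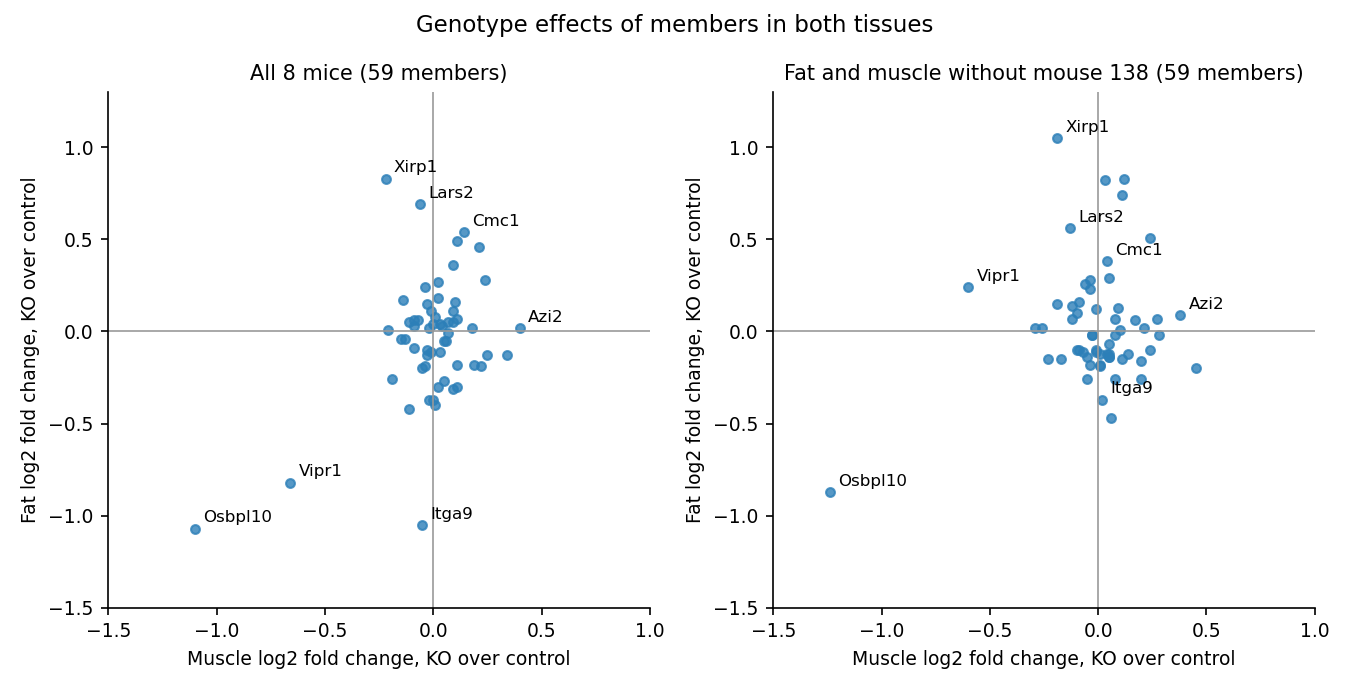
Log2 fold change, KO over control, of 59 members in muscle (horizontal axis) and fat (vertical axis), over all 8 mice (left) and without mouse 138 in both tissues (right). Osbpl10 lies at the lower left in both panels, and Vipr1 lies beside it with all 8 mice (fat -0.82) and above 0 without mouse 138 (fat 0.24).

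Whether the genotype effect differed by tissue was tested directly, as an interaction over the 16 libraries. This main fit had no term for the mouse, so both libraries of a mouse were treated as independent. Of 73 members tested, 0 had an edgeR adjusted p under 0.05, and 0 of all 17084 genes did (0%); DESeq2 called 11 genes and 0 members. At an unadjusted p under 0.05 there were 7 members (9.59%), against 7.19% of all genes, and the smallest adjusted p of a member was 0.653. Without mouse 138 there were 12 members (16.4%), against 11.2% of all genes. Without KO mouse 139 the share of members was 5.41%, and the share over all genes is not given here. Azi2 had a difference of 0.39 on the log2 scale, muscle effect minus fat effect (SE 0.14, edgeR unadjusted p = 0.012). Rbms3 had one of 0.40 (SE 0.14, edgeR unadjusted p = 0.014) and Lars2 one of -0.75 (SE 0.31, edgeR unadjusted p = 0.0308). Cx3cr1, too low to be tested in muscle alone, had one of 2.09 (SE 0.80, edgeR unadjusted p = 0.0188), and Zfp651 one of 0.42 (SE 0.18, edgeR unadjusted p = 0.0321). For Osbpl10 the difference was -0.04 (SE 0.51), an SE too wide to tell whether the tissues differ. Xirp1, an actin-binding protein of muscle, had -1.04 (SE 0.47, edgeR unadjusted p = 0.0426), with 5.1, 2.12, 1.06 and 4.26 CPM in KO fat, against 1.71, 1.53, 2.5 and 1.27 CPM in control fat. The myofibre markers (6 genes) of the same fat libraries summed to 5100, 1560, 441 and 3140 CPM in KO mice and 1280, 621, 3260 and 1450 CPM in controls. Their part in this value was not tested. With the mouse as a replicate block, the edgeR unadjusted p was 0.0407 for Azi2, 0.0167 for Rbms3 and 0.00654 for Lars2. In that fit it was 0.00359 for Cx3cr1, 0.0293 for Zfp651 and 0.0442 for Xirp1, and the smallest adjusted p of a member was 0.765.

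The size of genotype effects was set out by distance from Myd88. In muscle the median absolute log2 fold change of members was 0.062 within 1 Mb (14 members), 0.052 at 1 to 2 Mb (6), 0.037 at 2 to 3 Mb (14), 0.099 at 3 to 4 Mb (11) and 0.107 at 4 to 5 Mb (15). Protein-coding genes 5 to 10 Mb away had 0.105 (31 genes), and those on other chromosomes 0.092 (11571). The bins within 3 Mb thus had lower medians than other chromosomes in muscle in this fit. Within 1 Mb the muscle median ran from 0.062 to 0.102 (without KO mouse 958) with a mouse left out. It was 0.096 in the fit of all libraries and 0.175 with no filter, and values on other chromosomes are not given for those 2 settings. In fat the medians were 0.138 within 1 Mb (21 members), 0.291 (7), 0.253 (14), 0.181 (13) and 0.068 (17). Protein-coding genes 5 to 10 Mb away had 0.238 in fat (32 genes), and those on other chromosomes 0.151. Without mouse 138 the fat medians were 0.142, 0.060, 0.248, 0.153 and 0.132, against 0.123 at 5 to 10 Mb and 0.142 on other chromosomes. The median at 2 to 3 Mb was thus the highest without mouse 138, with 4 of 14 members (28.6%) at an unadjusted p under 0.05, against 16.9% on other chromosomes. With all mice the median at 1 to 2 Mb was higher. There, 1 of 14 members at 2 to 3 Mb (7.14%) had such a p, against 7.75% on other chromosomes. The fat median within 1 Mb was 0.276 without control mouse 131, 0.277 without control mouse 137, 0.25 without KO mouse 29 and 0.245 with limma voom. It was 0.199, against 0.151, by gene midpoints, and 0.193, against 0.113, among genes of at least 5 CPM in both tissues. The fat median close to Myd88 thus lay below that of other chromosomes by gene starts and above it by midpoints, and values on other chromosomes were not computed for the mice left out singly other than 138, or for voom. Of the 14 members tested within 1 Mb in muscle, 0 had an unadjusted p under 0.05 (0%), against 5.09% on other chromosomes. In fat 2 did, Acaa1b and Itga9 (9.52%, against 7.75% on other chromosomes), and without mouse 138 none of 21 did, against 16.9%. The bins hold 6 to 21 members each, which limits what they can show.

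**Figure D5:**
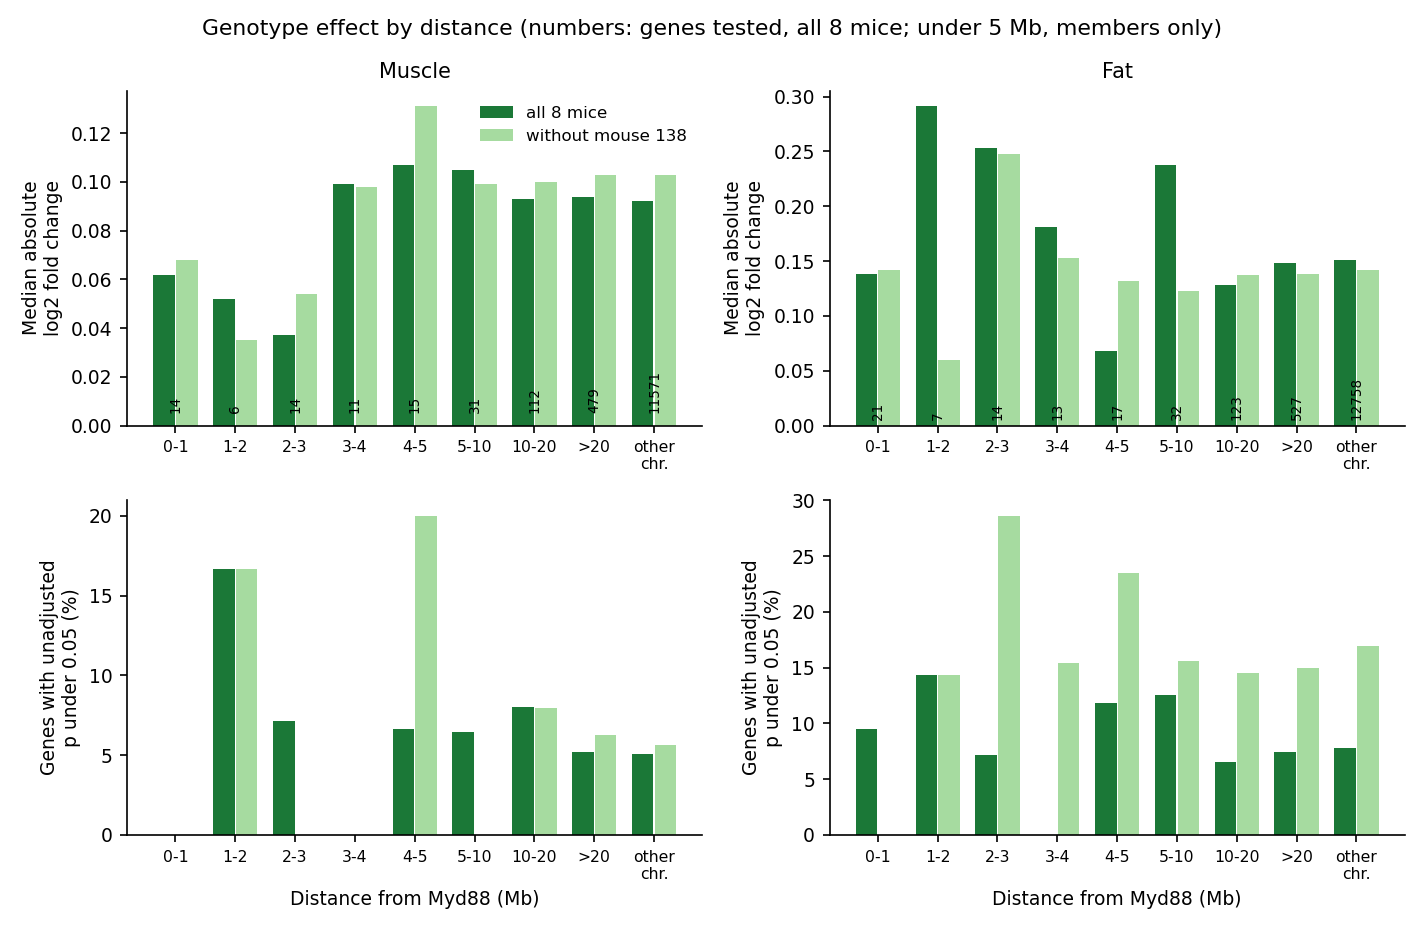
Median absolute log2 fold change (top) and percent of genes with an unadjusted edgeR p under 0.05 (bottom), for muscle (left) and fat (right), by distance from Myd88 in Mb and for other chromosomes; dark bars use all 8 mice and light bars leave out mouse 138. The bars within 1 Mb with all mice are 0.062 in muscle, against 0.092 on other chromosomes, and 0.138 in fat, against 0.151. With a mouse left out the muscle value ran from 0.062 to 0.102 and the fat value from 0.142 to 0.277.

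By function, 76 of the 93 members were put in 14 overlapping groups, and 0 members of any group passed the test in either tissue. In the group of 6 mitochondrial proteins, 4 were higher and 2 lower in KO muscle (median log2 fold change 0.06), and 4 were higher and 2 lower in KO fat (median 0.09; 3 higher and 3 lower, median -0.06, without mouse 138). Of 10 myofibre and muscle-enriched genes, 9 could be tested in muscle, with 4 higher and 5 lower (median -0.01). The list includes Klhl40, which stabilises thin-filament proteins and was at 79.5, 72.6, 72.7 and 70.3 CPM in KO muscle and at 77.8, 62, 68.2 and 64.9 CPM in control muscle. The group of 9 signalling genes had 5 higher and 3 lower of 8 tested in KO muscle (median 0.02) and 3 higher and 6 lower of 9 in KO fat (median -0.11; 4 higher and 5 lower, median -0.10, without mouse 138). Peroxisome, lipid and sugar enzymes, which include Osbpl10 and both thiolases, were lower in KO fat for 4 of 6 tested (median -0.26), and for 6 of 6 without mouse 138 (median -0.14). In the trafficking group, 7 of 12 were higher in KO muscle (median 0.04) and 8 of 13 in KO fat (median 0.02; 5 of 13, median -0.02, without mouse 138). Of the 6 solute carriers and transporters 2 were high enough for the test in muscle and 3 in fat, and of the 6 nerve and neuroendocrine genes 1 and 2. All 3 transporters tested were higher in KO fat over 8 libraries and lower without mouse 138. The 4 genes of ribosome and translation had 3 higher in KO muscle and 2 higher in KO fat, the 4 of RNA processing 1 and 3, and the 4 zinc finger genes 2 and 2, with the same counts in fat without mouse 138. All 3 lysosomal and collagen-processing genes (Glb1, Crtap and Clec3b) were higher in KO muscle (median 0.21) and 1 of 3 was higher in KO fat with or without mouse 138. Of chemokine and immune receptor genes the test covered 1 in muscle and 3 in fat, with 0 and 1 higher in KO mice, and of cilium and testis genes 1 and 4, with 0 and 3 higher (4 in fat without mouse 138). These medians stand beside medians over all genes of 0.003 in muscle and -0.011 in fat, or 0.009 in fat without mouse 138.

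Per kilobase of exon, Golga4, a golgin of the trans-Golgi network, led in muscle at a mean level of 61.9 CPM per kb, and Rpsa, a ribosomal protein of the small subunit, led in fat at 86.6. The order in muscle went on with Rpsa (49.9), Rpl14 of the large ribosomal subunit (48.0), beta-catenin, Ctnnb1 (37.4), Fyco1, an adaptor of vesicle transport (35.2), and Klhl40 (28.4). In fat it went on with Rpl14 (77.7), Ctnnb1 (72.4), the kinase gene Snrk (43.8), the phosphoinositide phosphatase gene Sacm1l (33.7) and the phosphatase gene Ctdspl (32.2). Ctnnb1 was at 215, 187, 181 and 197 CPM in KO muscle and at 195, 193, 193 and 193 CPM in control muscle, centred on the same level. In fat it was at 313, 329, 302 and 353 CPM in KO mice and at 365, 353, 608 and 382 CPM in controls. The log2 fold change of Ctnnb1 in fat was -0.40 (SE 0.20) with mouse 138 and -0.18 without it, when the genotypes did not overlap. Rpl14 had log2 fold changes of 0.00 (SE 0.09) in muscle and -0.37 (SE 0.29) in fat, the last of which was -0.02 without mouse 138. For Ctdspl they were 0.24 (SE 0.14) in muscle and 0.28 (SE 0.26) in fat, or 0.07 in fat without mouse 138. Golga4 had log2 fold changes of -0.11 (SE 0.09) in muscle and 0.05 (SE 0.12) in fat, and Rpsa of 0.05 (SE 0.09) and -0.27 (SE 0.17; -0.14 without mouse 138). Other genes share 28.7% of the stretches of Rpsa (19.03% in the copy Rpsa-ps10) and the copy Rpl14-ps1 26.5% of those of Rpl14, and 46.9% of those of Sacm1l lie in the overlapping gene Slc6a20b, so levels of these genes are uncertain.

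Of the 93 members, 59 were tested in both tissues, Gadl1 in muscle alone, 13 in fat alone and 20 in neither. The 13 include Acaa1b, Cx3cr1 and Vill, and the 20 include the sensory neuron channel genes Scn10a and Scn11a and the myelin gene Mobp. A member tested in one tissue alone passed the filter there by its level, so the counts above cover tested members and not all 93.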

How the data were processed

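The authors deposited raw read counts per gene, 1 column for each of the 16 libraries with no scaling, for 55536 genes. Stranded libraries were made after depletion of ribosomal RNA, per the labels' protocols. The tools listed, without their roles, are STAR 2.7.0f, featureCounts 1.6.3 and DESeq2 1.22.2, with the build GRCm38, per the submitters' processing notes. Neither strand setting nor handling of multiply mapped reads is stated. GENCODE M21 held all 55536 identifiers and supplied classes, symbols and positions. The table held no column of another sample.

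Over all genes of each tissue, KO mice were compared with controls using the quasi-likelihood test of edgeR 4.0.16 in R 4.3.3 (TMM, filterByExpr, robust), with Benjamini-Hochberg adjustment and a threshold of 0.05. The tissue difference was an interaction over 16 libraries. Log2 fold changes are KO over control, with an SE of their size over the root of the F statistic. Single members were also tested with a two-sided exact permutation test on log2(CPM + 0.5), with 70 assignments and a smallest p of 0.0286. Replicates are mice with separate subject numbers. Reads were counted without molecular identifiers. No pair of libraries of a group agreed within sampling noise in a chi-square comparison. The edgeR procedure was tested on simulated counts. Alternatives were DESeq2 1.42.0, limma 3.58.1 voom, other scalings and filters, 1 fit of all libraries, other windows, gene midpoints, and each mouse left out.

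Subject numbers in the labels were taken to pair the tissues of a mouse. Over 17084 genes, the deviations of a mouse's muscle and fat libraries from their group means correlated at 0.117, 0.132, 0.0851 and 0.198 in KO mice and at 0.0465, 0.00285, -0.0208 and -0.00103 in controls. In every KO mouse and in control mouse 131, muscle correlated most with its own fat among the fat libraries of the group. In control mice 137, 138 and 11 it did not. The members, the groups by function and the marker lists were chosen with earlier results of these data known. Members were named by smallest p (10 per tissue, 5 for the tissue difference), by nearness to Myd88 (6 on each side, without clone names), by level (6 per tissue), or as members of a group by function. Higd1a, and Vill, Gadl1 and Mobp as examples of tested or untested members, were chosen after values were seen. Promoters are from RefSeq (GRCm38.p6), which held 80 of the members. A member that this rule takes, and the group by function that rests on it, are not reported here.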

Additional observations from a re-analysis of the deposited data

Results flagged for a closer look

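In each group of 4 libraries, the named members were checked for a library that lay far from the other 3. This was so in 9 of 120 groups, where chance alone would give about 1 in 20, and 7 of the 9 were the fat library of control mouse 138. In that library, Vipr1 was at 5.25 CPM (nearest other control 1.25), Itga9 at 97.1 CPM (34.5) and Ctnnb1 at 608 CPM (382), all higher than the other controls. In the same library, Snrk was at 116 CPM (274), Sacm1l at 89 CPM (134), Crtap at 28.4 CPM (42.4) and Gpd1l, a glycerol-3-phosphate dehydrogenase-like enzyme, at 52.3 CPM (62.2), all lower than the other controls. The adipocyte, smooth muscle and urothelium markers of this library, given with the description of the samples, were also far from those of the other controls, and their part in these values was not tested.

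In muscle, Rpl14 was at 87.9 CPM in KO mouse 139, above the other KO mice (nearest 77.7 CPM), and Xirp1 at 85.7 CPM in control mouse 11, below the other controls (nearest 124 CPM).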

How the results depend on the processing

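Members called in muscle were 0 under all alternatives except with no filter on low counts, where Azi2 was called among 80 of all 28344 genes. Members called in fat were 0 except with DESeq2 without mouse 138 (an alternative added after seeing the data), which called Higd1a, and members called by tissue difference were 0 throughout. Genes called in muscle (2) numbered 80 with no filter, 1 with at least 1 CPM in 4 libraries, 10 with DESeq2 and 1 to 10 with a mouse left out (10 without KO mouse 29, 1 without KO mouse 139). Genes called in fat (1) numbered 72 with DESeq2, 0 with limma voom, 6 in the fit of all 16 libraries and 0 to 6 with a mouse left out, and without mouse 138 they were 5 with voom and 338 with DESeq2, both added after seeing the data. By tissue difference DESeq2 called 11 genes.

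Members with an unadjusted p under 0.05 in muscle (5%) were 0% in a window of 1 Mb and 6.45% to 9.52% with a mouse left out. In fat (8.33%) they were 17.8% in the fit of all 16 libraries, 19.4% with DESeq2 without mouse 138, and 4.11% (without KO mouse 960) to 15.3% (without control mouse 138) with a mouse left out. Members without overlap in fat (1.39%) were 0% within 1 Mb and 4.11% to 18.1% with a mouse left out, and 18.1% is the value without mouse 138. Overlap is read from scaled levels and not from a test, so edgeR and voom, with the same filter and scaling, must give the same share. The scaling of DESeq2 gave 18.1% too. With edgeR without mouse 138, 16.6% of all genes in fat had an unadjusted p under 0.05, and 15.9% did not overlap. For the other alternative fits the shares over all genes are not given, so these shifts cannot be read as particular to members. The median absolute log2 fold change was 0.052 in muscle in a window of 3 Mb and 0.271 in fat with no filter. Within 1 Mb it was 0.175 with no filter, 0.096 in the fit of all libraries and 0.062 to 0.102 with a mouse left out in muscle. In fat it was 0.323 with no filter, 0.245 with voom and 0.142 to 0.277 with a mouse left out. The log2 fold change of Vipr1 in fat, -0.82 over 8 libraries, was 0.24 without mouse 138 in edgeR, voom and DESeq2, and as low as -1.10 with another mouse left out (131). The cause of these shifts was not tested, except that settings with no filter add genes of few counts and a mouse left out leaves 3 against 4. With the mouse as a replicate block, the tissue difference again gave 0 genes and 0 members, and 9.59% of members had an unadjusted p under 0.05; the smallest adjusted p of a member was 0.765.

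With 4 mice per genotype, the low-level members Osbpl10 and Vipr1 had SEs of 0.27 and 0.26 on the log2 scale in muscle. In fat their SEs were 0.37 and 0.63. The median SE over members was 0.12 in muscle and 0.18 in fat.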

Other observations

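Some members too low to test in fat had high levels in a single library, and were chosen here after their values were seen. Entpd3, an ectonucleotidase, was at 0.0708, 0, 0.412 and 0 CPM in KO fat, against 0, 0, 31.3 and 0 CPM in control fat. Cdcp1, a transmembrane glycoprotein of epithelial cells, was at 0, 0, 0.412 and 0.124 CPM in KO fat, against 0.0589, 0.279, 26.7 and 0.0669 CPM in control fat. In both genes the high value is mouse 138, as is the 34.5 CPM of the villin-like gene Vill, which was at 6.66 to 7.25 CPM in KO fat and at 5.59, 6.69 and 7.9 CPM in the other controls.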
